A study of Mus musculus with 12 samples.

Results

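The genes described here are 10 immediate early and CREB-linked genes of mouse liver. They are Fos, Jun, Junb, Egr1, Ier2, Nr4a1, Atf3 and Btg2, which are immediate early genes, and Crem and Crtc2, which encode a CREB-family factor and a CREB coactivator. They were taken by symbol from the 48795 genes of the deposited table, each symbol matched a single gene, and all 10 were among the 13812 genes with enough counts to be tested.

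RNA was sequenced from the livers of 12 female mice to compare fed with fasted livers and neurotensin (Nts) genotypes, with 3 mice in each of 4 groups. Livers labelled Nts+/+ came from the fed mice 254, 257 and 323 and from mice 265, 282 and 322 after a fast of 22 h. Livers labelled Nts-/- came from the fed mice 277, 303 and 319 and from mice 284, 290 and 295 after the same fast. All were aged 4 months, kept on normal chow and given 1 shared batch label, and the fed mice ate ad libitum. The study states that it used littermates of matched age and sex, and the labels do not give the litter of a mouse. Nts-/- denotes loss of the gene in the whole body, and both genotypes were bred from heterozygous parents. The authors deposited expected counts (estimated reads per gene), which totalled between 21999656 and 45273081 per mouse, so that a floor of 3 counts stood between 0.0663 and 0.136 CPM (counts scaled to the depth of a library), a floor that covers counting error only. Hepatocyte genes such as Alb and Apoa1 were abundant (means of 100085 and 7766 TMM-normalized CPM), and the summed hepatocyte markers took between 109227 and 138977 TMM-normalized CPM in every mouse.

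Counts on Nts itself went against the labels. The 6 libraries labelled Nts+/+ had 0 counts, whereas those labelled Nts-/- had 46, 40 and 15 counts when fed (mice 277, 303 and 319) and 12, 4 and 18 counts when fasted (mice 284, 290 and 295). Genotypes below are those of the deposited labels, and each direction between genotypes is a direction between labels.

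Immediate early genes are transcribed within minutes of a stimulus by factors that the cell already holds, and their transcripts are short-lived. In the fasted liver, glucagon raises cAMP, protein kinase A phosphorylates CREB at cAMP response elements (CREs), and the coactivator CRTC2 moves to the nucleus to raise the transcription of gluconeogenic genes. Fos and Egr1 are also textbook targets of the ERK cascade, which acts through serum response factor and its ternary complex partners.

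The sequences just upstream of 4 of these genes are shown as examples that hold the CRE or a shorter part of it, and binding of CREB was not measured. Of the 10 genes, 6 matched the RefSeq promoter table (GRCm38.p6, 250 bases before to 50 after each start). The palindromic CRE (TGACGTCA), searched on both strands, stood in the Btg2 promoter at -166 from the start, and 1.79% of all 32851 promoters of the same length hold it. The half-site (TGACG, or CGTCA on the other strand, also counted within a full CRE) occurred 4 times in Nr4a1 (at -233, -213, -69 and -40), 2 times in Fos (-129 and -66), 1 time in Junb (-106), 1 time in Atf3 (-7), 2 times in Btg2 (-166 and -163, both within its CRE) and 0 times in Jun, against 20.8% of all promoters with at least 1. The AP-1 motif (TGANTCA, 7.81% of promoters) and the CArG box bound by serum response factor (1.63% of promoters) matched 0 of the 6 windows. Sites outside these windows, such as those further upstream, were not searched, and Egr1 was not among the 6 genes. The 250 bases before the start of Fos (chr12:85473640-85473889, plus strand), Nr4a1 (chr15:101266596-101266845, plus strand), Btg2 (chr1:134079156-134079405, minus strand) and Junb (chr8:84978749-84978998, minus strand) are printed 5′ to 3′, with the CRE and its half-sites in capitals.
Fos: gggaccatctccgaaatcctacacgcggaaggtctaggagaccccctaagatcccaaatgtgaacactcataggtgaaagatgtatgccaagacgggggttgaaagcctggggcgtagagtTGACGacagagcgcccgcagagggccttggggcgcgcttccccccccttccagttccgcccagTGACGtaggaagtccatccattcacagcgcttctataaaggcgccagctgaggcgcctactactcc
Nr4a1: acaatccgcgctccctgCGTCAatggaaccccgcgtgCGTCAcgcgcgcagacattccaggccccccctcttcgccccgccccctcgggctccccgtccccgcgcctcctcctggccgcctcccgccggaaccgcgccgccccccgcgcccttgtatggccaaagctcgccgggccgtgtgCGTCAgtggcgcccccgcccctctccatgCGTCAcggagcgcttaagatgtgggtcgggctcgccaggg
Btg2: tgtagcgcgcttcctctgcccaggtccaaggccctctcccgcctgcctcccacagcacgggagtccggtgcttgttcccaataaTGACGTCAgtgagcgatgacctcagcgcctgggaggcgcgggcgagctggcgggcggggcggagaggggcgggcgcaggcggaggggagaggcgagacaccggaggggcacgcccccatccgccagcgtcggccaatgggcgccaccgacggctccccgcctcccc
Junb: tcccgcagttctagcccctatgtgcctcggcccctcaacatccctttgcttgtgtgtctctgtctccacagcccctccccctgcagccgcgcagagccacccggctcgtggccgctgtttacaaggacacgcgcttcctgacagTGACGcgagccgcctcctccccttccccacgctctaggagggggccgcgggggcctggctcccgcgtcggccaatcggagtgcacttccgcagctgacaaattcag

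Per kilobase of the longest annotated transcript (GENCODE vM39), the level of these genes, as the median of the 12 mice, ran from Ier2 (11.3 CPM per kb) through Junb (9.29), Crtc2 (7.87), Egr1 (3.77), Jun (2.95), Crem (2.94), Btg2 (1.38), Atf3 (0.518) and Fos (0.432) to Nr4a1 (0.295). The order rests on the longest transcript, which had 8105 bases for Crem, 6603 for Nr4a1 and 5994 for Btg2, and other lengths were not tried. Btg2 and Atf3 were the only neighbours in this order whose ranges over the mice did not overlap. Fos, Atf3 and Nr4a1 were thus low in these livers, with as few as 12, 21 and 16 counts in a mouse. All other values below are TMM-normalized CPM of a gene, which compare mice and not genes.

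Fasted livers were compared with fed ones first within each genotype and then on average, with the share of all tested genes beside each count. In Nts+/+ livers 1 of the 10 passed an adjusted p of 0.05 in edgeR's test (Crem, lower when fasted), against 18.1% of all tested genes (8.91% higher and 9.19% lower), and 3 of the 10 had an unadjusted p under 0.05, against 32.5%. In Nts-/- livers 0 of the 10 passed, against 16.8% of all tested genes (7.70% higher and 9.14% lower), and 0 of the 10 had an unadjusted p under 0.05, against 31.7%. The Wald test of DESeq2 called 1 of the 10 there (Egr1), against 20.2% of all tested genes. Averaged over the genotypes, 2 of the 10 passed (Crtc2 higher and Crem lower), against 32.8% of all tested genes (16.0% higher and 16.8% lower), and 4 of the 10 had an unadjusted p under 0.05, against 42.6%. The median log2 fold change of the 10 genes in the averaged contrast was -0.40, against -0.01 for all tested genes. Across the 6 fed and 6 fasted mice, the values of 0 of the 10 genes were fully apart, against 15.9% of all tested genes (7.83% higher when fed and 8.05% higher when fasted). In Nts+/+ mice 3 of the 10 were apart (Crtc2 higher, Crem and Atf3 lower when fasted), against 36.0% of all genes, and in Nts-/- mice 0 of the 10, against 35.2%.

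**Figure D1:**
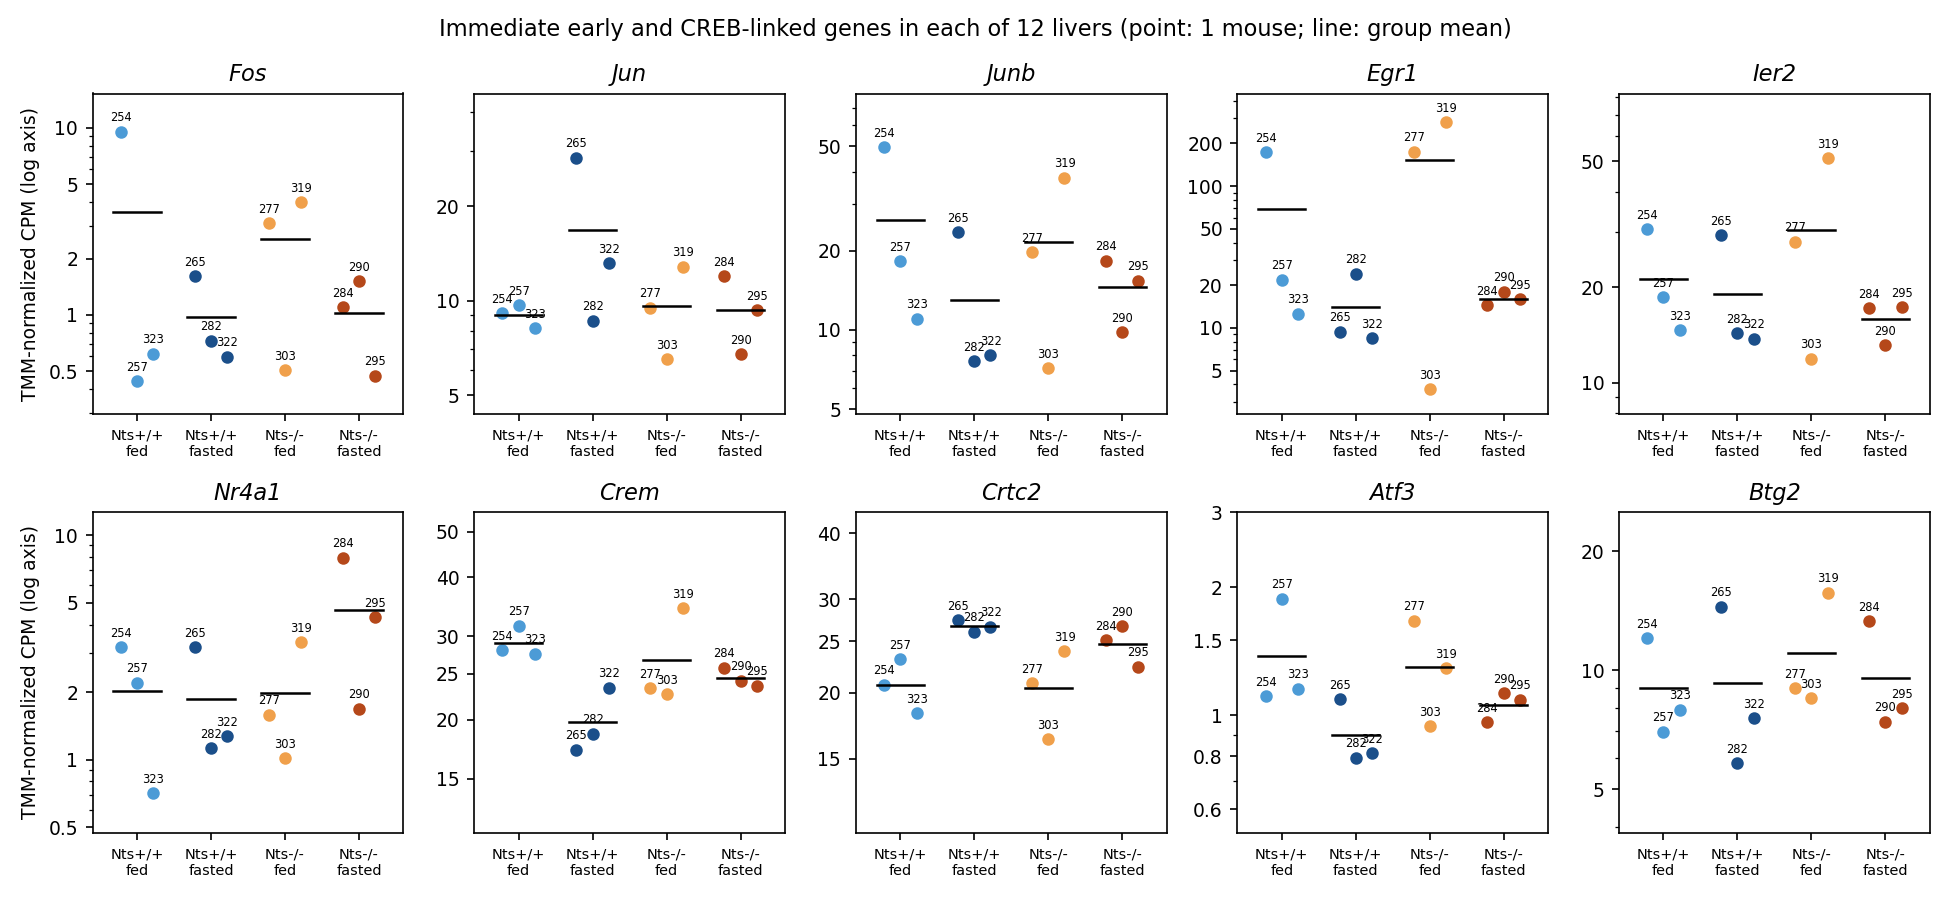
TMM-normalized CPM (log axis, 1 panel a gene) of the 10 genes in each of the 12 livers, with the mouse number above each point and a line at the mean of the 3 mice of a group. Mice 254, 277 and 319 stand high among fed mice for Egr1 and Fos, and the Crtc2 values of the 3 fasted Nts+/+ mice all lie above those of the 3 fed ones.

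Crtc2 (chr3:90254163-90264125, on GRCm38 as are all gene positions here) encodes the coactivator that joins CREB when glucagon signalling silences the salt-inducible kinases. In Nts+/+ mice its level was 20.7, 23.1 and 18.3 CPM when fed (mice 254, 257 and 323) and 27.4, 26.1 and 26.6 when fasted (265, 282 and 322). In Nts-/- mice it was 20.8, 16.3 and 24.0 when fed (277, 303 and 319) and 25.1, 26.7 and 22.4 when fasted (284, 290 and 295). The fasted values were above all fed values in Nts+/+ mice, and they overlapped the fed values in Nts-/- mice (mouse 319 when fed was above mouse 295 when fasted). The averaged log2 fold change was 0.32 (SE 0.10, adjusted p = 0.0252), or 1.25-fold, with estimates of 0.37 in Nts+/+ (adjusted p = 0.0932) and 0.28 in Nts-/- livers (adjusted p = 0.201). The averaged call was lost without mouse 323 (adjusted p = 0.0532), 303 (0.0529) or 290 (0.0602).

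Crem (chr18:3266048-3337748), whose products include activators and the inducible repressor ICER, moved the other way. Its level in Nts+/+ mice was 28.1, 31.6 and 27.6 CPM when fed (mice 254, 257 and 323) and 17.3, 18.7 and 23.4 when fasted (265, 282 and 322). In Nts-/- mice it was 23.3, 22.6 and 34.4 when fed (277, 303 and 319) and 25.7, 24.2 and 23.6 when fasted (284, 290 and 295). All fasted Nts+/+ mice were below all fed ones, whereas the fasted Nts-/- mice lay within the range of the fed ones, which is set at its top by mouse 319. The log2 fold change was -0.55 in Nts+/+ (SE 0.16, adjusted p = 0.0315), -0.13 in Nts-/- (SE 0.16, adjusted p = 0.637) and -0.34 on average (SE 0.12, adjusted p = 0.0354). The difference of these responses was 0.43 (95% interval -0.07 to 0.92, adjusted p = 0.897). The call in Nts+/+ mice was lost without mouse 254 (adjusted p = 0.0753), 257 (0.102), 265 (0.113) or 282 (0.117). The averaged call was lost in the same 4 cases (adjusted p between 0.0601 and 0.0902) and without mouse 319 (0.0702), 284 (0.0570), 290 (0.0699) or 295 (0.0748). Counts are per gene, so the activator and repressor forms of Crem are summed.

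Egr1 (chr18:34859823-34864984), a zinc finger factor induced through ERK and serum response factor, had the largest fasting fold changes of the 10 and the widest spread between fed mice. In Nts+/+ mice its level was 174, 21.9 and 12.6 CPM when fed (mice 254, 257 and 323) and 9.39, 24.2 and 8.43 when fasted (265, 282 and 322). In Nts-/- mice it was 175, 3.69 and 281 when fed (277, 303 and 319) and 14.4, 18.0 and 15.9 when fasted (284, 290 and 295). Mice 254, 277 and 319 were far above the other 9, while the fed mouse 303 had the lowest level of all 12. The averaged log2 fold change was -2.78 (95% interval -5.07 to -0.49, adjusted p = 0.0650), with -2.31 in Nts+/+ (adjusted p = 0.294) and -3.25 in Nts-/- livers (adjusted p = 0.162). Without mouse 254 the averaged estimate was -1.77 (adjusted p = 0.174) and the Nts+/+ estimate -0.30 (adjusted p = 0.914). The averaged difference passed without mouse 303 (log2 fold change -3.06, adjusted p = 0.0179) and in the Wald test of DESeq2 (-2.77, adjusted p = 0.00569, a test that called 34.1% of all genes), which also placed Egr1 past the threshold in Nts-/- livers (-3.24, adjusted p = 0.0411).

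Fos (chr12:85473890-85477273), which pairs with Jun proteins to form AP-1, was high in the same 3 fed mice. Its level in Nts+/+ mice was 9.53, 0.441 and 0.621 CPM when fed (mice 254, 257 and 323) and 1.61, 0.727 and 0.597 when fasted (265, 282 and 322). In Nts-/- mice it was 3.10, 0.507 and 3.99 when fed (277, 303 and 319) and 1.10, 1.52 and 0.472 when fasted (284, 290 and 295). In the other fed mice Fos stood between 0.441 and 0.621 CPM, which overlaps the fasted mice (0.472 to 1.61). The averaged log2 fold change of -1.63 did not pass (95% interval -3.52 to 0.27, adjusted p = 0.172), and without mouse 254 it was -0.25 (adjusted p = 0.776), while the Nts+/+ estimate of -1.91 became 0.84.

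Junb (chr8:84974484-84978718), an AP-1 partner, had 49.5, 18.2 and 11.0 CPM in fed Nts+/+ mice (254, 257 and 323), 23.5, 7.60 and 8.00 in fasted Nts+/+ mice (265, 282 and 322), 19.8, 7.17 and 37.9 in fed Nts-/- mice (277, 303 and 319) and 18.3, 9.79 and 15.4 in fasted Nts-/- mice (284, 290 and 295). Mice 254 and 319 led again, and fed and fasted mice overlapped in both genotypes. Ier2 (chr8:84661331-84662852), an immediate early gene of the cell nucleus, had 30.6, 18.7 and 14.6 CPM in fed Nts+/+ mice, 29.3, 14.3 and 13.8 in fasted Nts+/+ mice, 27.9, 11.9 and 51.2 in fed Nts-/- mice and 17.2, 13.1 and 17.3 in fasted Nts-/- mice, in the same order. Its 4 highest mice were 319, 254, 265 and 277, which are also the 4 highest for Junb. The averaged log2 fold change was -0.80 for Junb (95% interval -2.01 to 0.41, adjusted p = 0.290) and -0.55 for Ier2 (-1.35 to 0.26, adjusted p = 0.278). Junb overlaps Prdx2, an abundant gene with between 1939 and 4457 counts a mouse, the sources used here do not say whether reads were counted by strand, and the expected counts of Junb were whole numbers in all 12 mice.

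Jun (chr4:95049034-95052222), the AP-1 subunit that is also induced by stress kinases, did not follow Fos and Egr1. Its level was 9.12, 9.68 and 8.16 CPM in fed Nts+/+ mice (254, 257 and 323), 28.6, 8.63 and 13.2 in fasted Nts+/+ mice (265, 282 and 322), 9.50, 6.52 and 12.8 in fed Nts-/- mice (277, 303 and 319) and 12.0, 6.75 and 9.33 in fasted Nts-/- mice (284, 290 and 295). Mouse 265 stood alone, and it was also the highest mouse for Dusp1, a phosphatase that switches off stress and ERK kinases, with 75.3 CPM against 8.76 to 21.7 in the other 11 mice. Among tested genes of the 10 and of the immediate early list below, mouse 265 was also highest for Crtc2, Zfp36l2, Csrnp1, Cyr61 and Socs3. The same mouse was lowest for Crem, Klf2, Klf6, Rhob and Mcl1. Mouse 265 was not the most extreme by this measure, since mouse 319 was highest, and mouse 303 lowest, for more of these genes. The share of all tested genes with such an order was not counted. The log2 fold change of Jun was 0.89 in Nts+/+ livers (95% interval 0.01 to 1.77, adjusted p = 0.150), -0.04 in Nts-/- livers (adjusted p = 0.961) and 0.43 on average (adjusted p = 0.279). Without mouse 265 the Nts+/+ estimate was 0.29. Jun overlaps the antisense gene Junos, which had at most 10.66 counts in a mouse, and its own expected counts were not whole in 10 of the 12 mice.

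Nr4a1 (chr15:101266846-101274792), an orphan nuclear receptor that CREB induces after glucagon, had 3.18, 2.21 and 0.709 CPM in fed Nts+/+ mice (254, 257 and 323), 3.18, 1.12 and 1.27 in fasted Nts+/+ mice (265, 282 and 322), 1.59, 1.01 and 3.34 in fed Nts-/- mice (277, 303 and 319) and 7.93, 1.69 and 4.30 in fasted Nts-/- mice (284, 290 and 295). The fasted Nts-/- mice 284 and 295 were the highest of all 12, and the third mouse of that group, 290, lay inside the fed range. The log2 fold change with fasting was -0.18 in Nts+/+ (adjusted p = 0.889), 1.23 in Nts-/- (95% interval -0.28 to 2.74, adjusted p = 0.248) and 0.53 on average (adjusted p = 0.446).

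Atf3 (chr1:191170296-191218039), a CREB/ATF-family stress factor, had 1.11, 1.88 and 1.15 CPM in fed Nts+/+ mice (254, 257 and 323), 1.09, 0.793 and 0.814 in fasted Nts+/+ mice (265, 282 and 322), 1.67, 0.941 and 1.29 in fed Nts-/- mice (277, 303 and 319) and 0.962, 1.13 and 1.09 in fasted Nts-/- mice (284, 290 and 295). Fed and fasted mice were apart in Nts+/+ only by the gap between mice 254 and 265. Its averaged log2 fold change was -0.47 (95% interval -0.93 to -0.003, adjusted p = 0.115). Btg2 (chr1:134075170-134079120), an antiproliferative gene and the one with a full CRE among the promoters shown, had 12.0, 6.99 and 7.94 CPM in fed Nts+/+ mice, 14.5, 5.82 and 7.57 in fasted Nts+/+ mice, 9.00, 8.51 and 15.7 in fed Nts-/- mice and 13.3, 7.40 and 8.01 in fasted Nts-/- mice, in the same order. Each group thus held 1 high mouse (254, 265, 319 and 284), and the averaged log2 fold change was -0.09 (95% interval -0.68 to 0.50, adjusted p = 0.830).

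**Figure D2:**
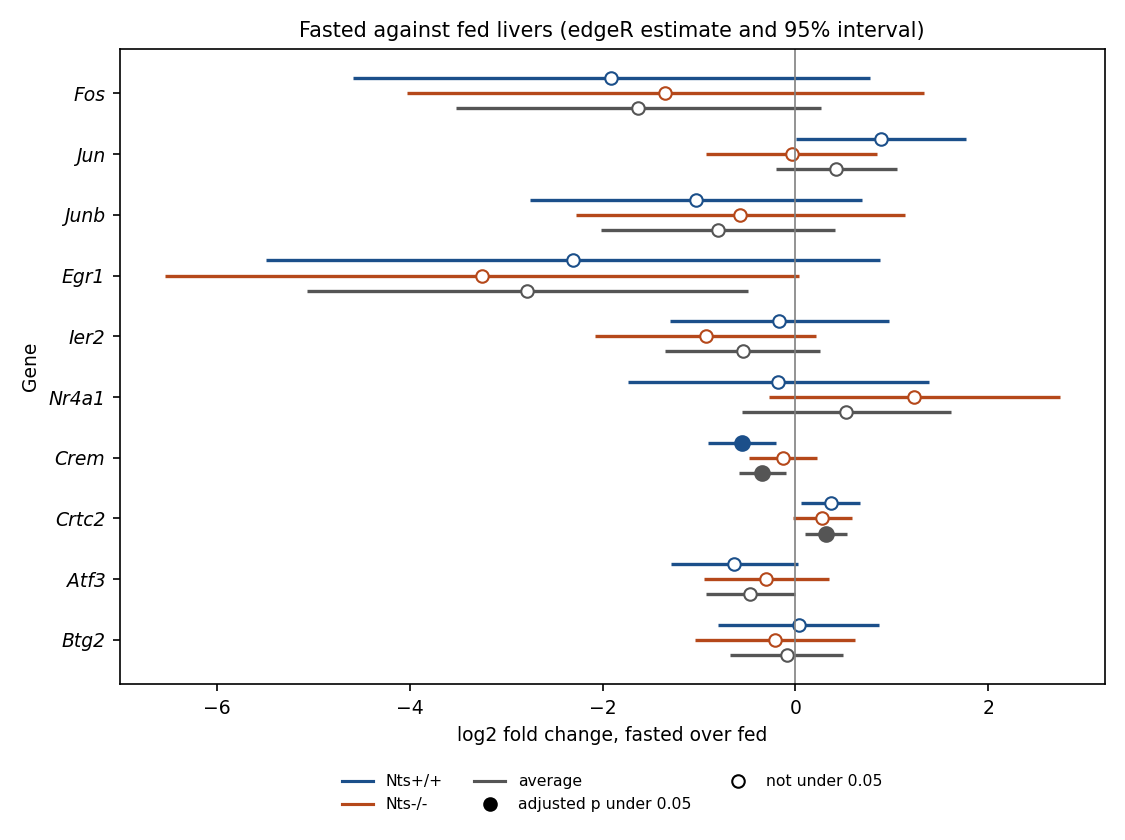
Log2 fold change of fasted over fed livers (x axis) for the 10 genes (y axis), as edgeR estimates with 95% intervals in Nts+/+ livers, in Nts-/- livers and averaged, where a filled point marks an adjusted p under 0.05. Filled points appear for Crem (-0.55 in Nts+/+ and -0.34 averaged) and Crtc2 (0.32 averaged), and the widest intervals are those of Egr1 and Fos.

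Egr1 and Fos varied most between fed mice. Over the 6 fed mice the highest Egr1 level was 76.2 times the lowest, and 0.188% of tested genes had a wider log2 range. For Fos the ratio was 21.6 (0.681% of genes wider), for Junb 6.91 (2.29%), for Nr4a1 4.71 (4.48%) and for Ier2 4.30 (4.65%). Over the 6 fasted mice the ratio was 7.05 for Nr4a1 (2.03% of genes wider) and 4.23 for Jun (4.6%), the widest of the 10, and 2.23 for Ier2 (18%). It was 2.87 for Egr1 (10% of genes wider), 3.41 for Fos (8.37%) and 3.09 for Junb (8.55%). Egr1, Fos, Junb, Ier2, Atf3, Crem and Crtc2 had a wider log2 range in fed than in fasted mice, and Jun, Nr4a1 and Btg2 had a wider one in fasted mice. The Crem ranges, 1.52 in fed and 1.49 in fasted mice as ratios, were near the median log2 range of all tested genes, which was 0.64 in fed and 0.59 in fasted mice. These ranges are given without a test. The high fed mice 254, 277 and 319 had totals of 26638264, 34316287 and 24051013 counts and mitochondrially encoded shares of 5.18%, 2.70% and 3.98%, and the other fed mice (257, 323 and 303) had totals of 27297486, 21999656 and 25823580 counts and shares of 3.69%, 2.24% and 3.89%. The part of these measures in the Egr1 and Fos levels was not tested.

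**Figure D3:**
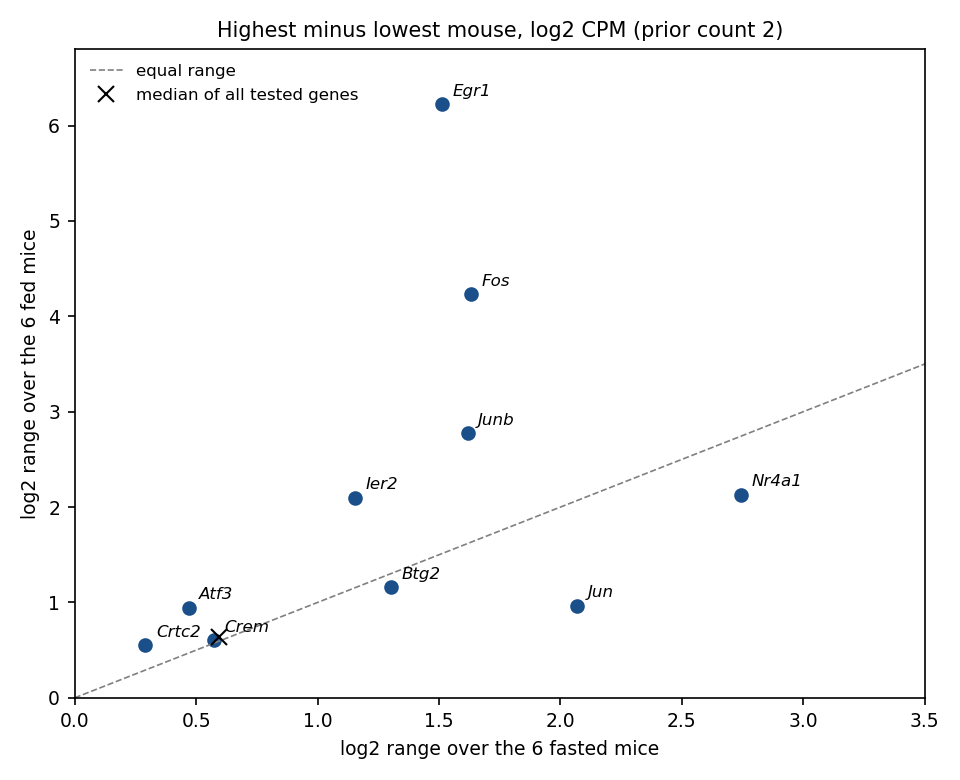
Log2 range (highest minus lowest mouse, log2 CPM with a prior count of 2) over the 6 fed mice (y axis) against that over the 6 fasted mice (x axis), 1 point a gene. Egr1 and Fos lie far above the dashed line of equal ranges, Jun and Nr4a1 lie below it, and Crem is beside the cross that marks the medians of all tested genes (0.59 and 0.64).

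The comparison of genotype labels asked whether Nts changed the expression of these genes in either feeding state. In fed livers 0 of the 10 genes passed, against 0% of all tested genes (0 of 13812 in edgeR's test, with 876 at an unadjusted p under 0.05 and 12 past the threshold in DESeq2). In fasted livers 0 of the 10 passed, with 0 of 13812 genes in all (685 at an unadjusted p under 0.05, and 4 in DESeq2). Averaged over feeding states 0 of the 10 passed, with 0 of all genes (859 at an unadjusted p under 0.05, and 16 in DESeq2), and for the difference of the fasting responses 0 of the 10, with 0 of all genes (663 unadjusted, and 3 in DESeq2). In each of these 4 contrasts 0 of the 10 had an unadjusted p under 0.05, and 0 passed in DESeq2. The smallest adjusted p among the 10 was 0.868 in fed livers (Ier2), 0.917 in fasted livers (Jun), 0.836 on average (Jun) and 0.897 for the difference of responses (Crem).

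In fasted livers, the mean Jun level was lower in the livers labelled Nts-/-, at 9.35 ± 2.60 CPM, than in those labelled Nts+/+, at 16.8 ± 10.4 CPM (SD, n = 3 each). The log2 difference was -0.84 (95% interval -1.72 to 0.04, adjusted p = 0.917), and without mouse 265 it was -0.23. Nr4a1 averaged 4.64 ± 3.13 CPM in fasted Nts-/- and 1.86 ± 1.15 in fasted Nts+/+ livers (SD, n = 3 each), a log2 difference of 1.35 (95% interval -0.18 to 2.88, adjusted p = 0.917) that was 0.74 without mouse 284 and 1.94 without mouse 265. Crem averaged 24.5 ± 1.12 CPM in fasted Nts-/- and 19.8 ± 3.20 in fasted Nts+/+ livers (SD, n = 3 each), a log2 difference of 0.31 (95% interval -0.04 to 0.66, adjusted p = 0.917). Crem was the 1 gene of the 10 whose fasted groups did not overlap, against 12.2% of all tested genes, and in fed livers 0 of the 10 were apart, against 10.7%.

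In fed livers, Egr1 averaged 153 ± 140 CPM in Nts-/- and 69.4 ± 90.5 in Nts+/+ mice (SD, n = 3 each), so that the SD was close to or above the mean, and the log2 difference of 1.14 had a 95% interval from -1.89 to 4.18 (adjusted p = 0.888). That difference was 0.37 without mouse 319 and 3.15 without mouse 254. For Fos the fed difference was -0.49 (95% interval -2.96 to 1.98) and for Junb -0.29 (-1.98 to 1.40). Crtc2 had the narrowest intervals, with -0.03 in fed (-0.33 to 0.28) and -0.11 in fasted livers (-0.42 to 0.19).

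**Figure D4:**
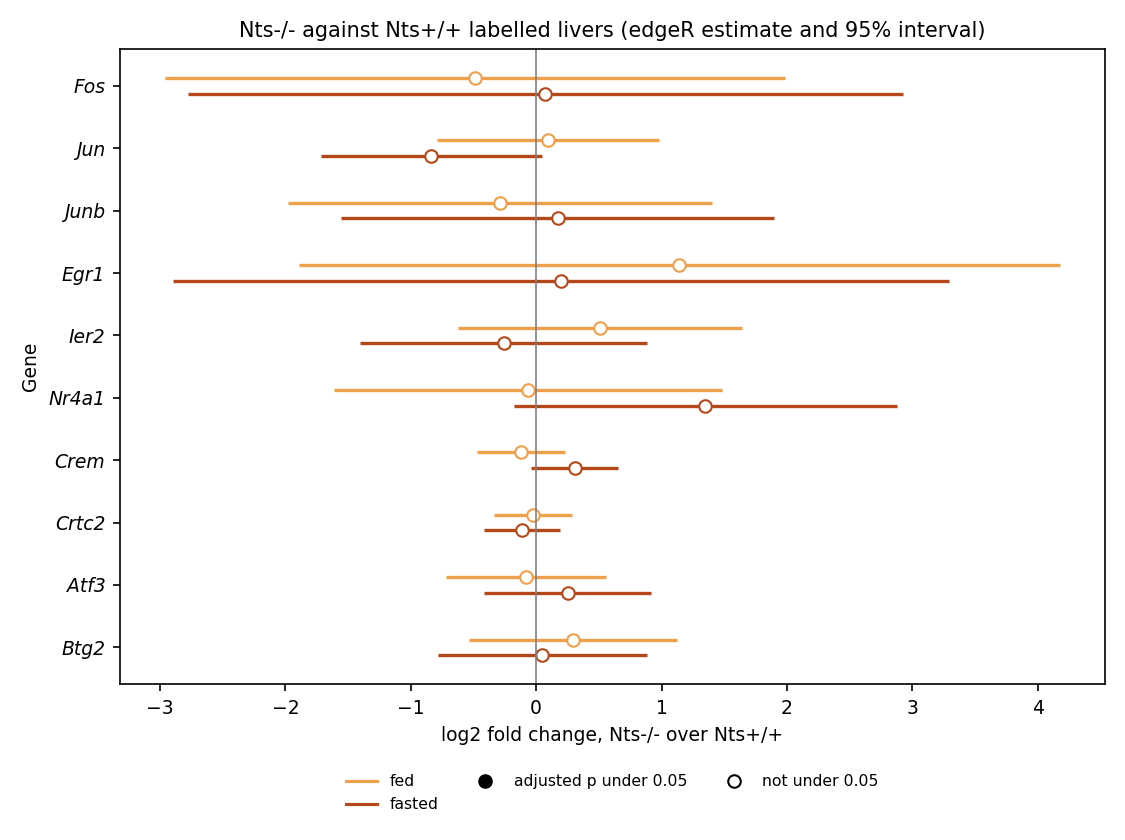
Log2 fold change of livers labelled Nts-/- over those labelled Nts+/+ (x axis) for the 10 genes (y axis) in fed and in fasted livers, as edgeR estimates with 95% intervals. The points are all open, since 0 of the 10 genes passed an adjusted p of 0.05, and the estimates lie between -0.84 (Jun, fasted) and 1.35 (Nr4a1, fasted).

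Other genes of these pathways were compared through 4 lists, which were chosen with earlier results of these data known. The list of CREB targets names genes of the fasted liver, so its rise with fasting could be foreseen from its choice. Its counts are descriptive and are no test of CREB activity. Of 13 CREB target genes of the fasted liver, 12 were tested and 8 were higher and 0 lower in the averaged contrast (median log2 fold change 0.90, against -0.01 for all tested genes), where 16.0% of all tested genes were higher and 16.8% lower. In Nts+/+ livers 3 of the 12 were higher, against 8.91% of all genes, and in Nts-/- livers 4 of the 12, against 7.70%. The 8 were the gluconeogenic enzyme genes Pck1 (log2 fold change 1.25, SE 0.35, adjusted p = 0.0201), G6pc (1.15, SE 0.22, adjusted p = 0.00203) and Pcx (1.08, SE 0.12, adjusted p = 1.96e-05), the coactivator gene Ppargc1a (0.87, SE 0.24, adjusted p = 0.0155), the hepatic CREB-family gene Creb3l3 (0.72, SE 0.14, adjusted p = 0.00189), the cAMP phosphodiesterase gene Pde4d (0.93, SE 0.16, adjusted p = 0.000534), the stress gene Gadd45b (1.88, SE 0.32, adjusted p = 0.00130) and the clock gene Per1 (1.39, SE 0.37, adjusted p = 0.0158). Pck1 stood at 1378 ± 418 CPM in fed and 2753 ± 368 in fasted Nts+/+ livers (adjusted p = 0.194), and at 1114 ± 709 in fed and 3175 ± 906 in fasted Nts-/- livers (adjusted p = 0.0653, SD, n = 3 each), and its averaged call was lost with no filter on low counts (adjusted p = 0.0601). Gadd45b rose from 3.48 ± 1.55 to 14.6 ± 6.91 CPM in Nts+/+ and from 2.95 ± 1.53 to 9.38 ± 2.90 CPM in Nts-/- livers (SD, n = 3 each). In the same averaged contrast Fos, Egr1 and Nr4a1 did not pass, and Crem was lower.

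The CREB family, its coactivators and the cAMP pathway had 4 of 21 tested genes higher and 0 lower in the averaged contrast (median log2 fold change 0.16), beside 16.0% of all tested genes higher and 16.8% lower. These were Adcy6, an adenylyl cyclase (1.09, SE 0.10, adjusted p = 4.38e-06), Sik3, a salt-inducible kinase that holds CRTC proteins in the cytoplasm (0.40, SE 0.09, adjusted p = 0.00542), Pde4d and Creb3l3. Creb1, which encodes CREB itself, had a log2 fold change of -0.02 (SE 0.10, adjusted p = 0.912). The list had 3 genes higher in Nts+/+ and 2 higher in Nts-/- livers, beside 8.91% and 7.70% of all genes.

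Other immediate early genes went both ways, at counts near the shares of all tested genes. Of 34 listed genes, 28 were tested, and 6 were higher and 4 lower in the averaged contrast (median log2 fold change 0.28), beside 16.0% higher and 16.8% lower of all tested genes, with 3 higher and 3 lower in Nts+/+ and 2 higher and 3 lower in Nts-/- livers. The higher ones named by the rule were Gadd45b, Myc, a growth factor-induced transcription factor (1.03, SE 0.26, adjusted p = 0.00848), and Klf10, a Krüppel-like factor (0.81, SE 0.21, adjusted p = 0.0123). Lower were Gadd45a, a growth arrest gene (-1.33, SE 0.29, adjusted p = 0.00368), Ier5 (-0.79, SE 0.16, adjusted p = 0.00194) and the Krüppel-like factor Klf6 (-0.62, SE 0.13, adjusted p = 0.00296). Myc stood at 2.33 ± 0.668 CPM in fed and 5.10 ± 1.51 in fasted Nts+/+ livers (adjusted p = 0.0491), and at 2.48 ± 0.841 in fed and 4.69 ± 2.28 in fasted Nts-/- livers (adjusted p = 0.101, SD, n = 3 each). Fosb, Fosl1, Egr2, Egr3, Nr4a3 and Arc had too few counts to be tested.

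The ERK cascade and serum response factor list had 5 of 22 tested genes higher and 4 lower in the averaged contrast (median log2 fold change 0.04), beside 16.0% and 16.8% of all tested genes. It had 3 genes higher in Nts+/+ and 2 higher in Nts-/- livers, with 0 lower in either. Among the 5 was the fatty acid transporter gene Cd36, which is no part of the ERK cascade and was listed with it because the study followed it as an early target of neurotensin, and which had the largest rise (1.92, SE 0.20, adjusted p = 2.97e-05). The kinase genes Braf (0.69, adjusted p = 0.000886), Map2k2 (0.48, adjusted p = 0.00588) and Mapk8 (0.33, adjusted p = 0.0114) were higher, and Mapk3 (-0.44, adjusted p = 0.0139) and the ternary complex factor Elk3 (-0.35, adjusted p = 0.0215) were lower. The Elk3 call was lost with no filter on low counts (adjusted p = 0.0540) and without mouse 254, 257, 265, 303, 290 or 295 (0.0512 to 0.0575). Between genotype labels, 0 genes of these 4 lists passed in edgeR's test or in DESeq2 in any contrast, and at most 3 of a list had an unadjusted p under 0.05. These were 3 of the 21 tested CREB family and cAMP genes, for the difference of the fasting responses, against 4.8% of all tested genes.

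**Figure D5:**
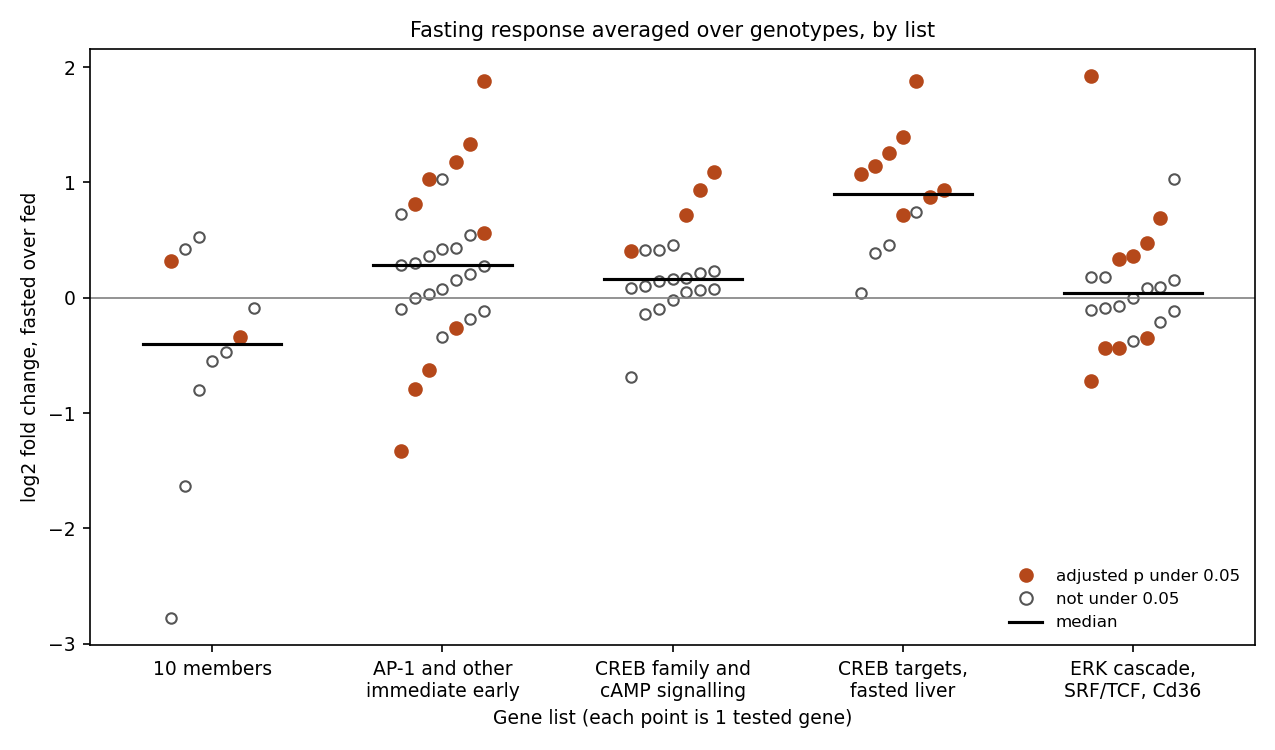
Log2 fold change of fasted over fed livers, averaged over genotypes (y axis), of each tested gene of the 10 described here and of 4 gene lists (x axis), where filled points passed an adjusted p of 0.05 and lines mark medians. The median of the 10 genes is -0.40, below those of the 4 lists (0.04 to 0.90), and 8 of the 12 tested CREB targets are filled and above 0.

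Several genes had a pattern over the 12 mice like those of the 10. By Pearson correlation of log2 TMM-normalized CPM, the nearest to Egr1 were Ccdc28a (r = 0.91), Zfp90 (0.90) and Arhgap44 (0.88), and the nearest to Fos were Lmbr1l (0.84), Ccdc28a (0.84) and Foxp1 (0.83). Pank4 was among the 3 nearest to both Junb (0.88) and Ier2 (0.84), and Lmbr1l to both Fos and Junb (0.85). The nearest to Crtc2 were Napa (0.95), Rbfa (0.95) and Tmem259 (0.95), and the nearest to Crem were Gzma (0.94), Prss53 (0.93) and Gm3934 (0.92). The nearest to Jun was Tgfb3 (0.85), to Nr4a1 2210016L21Rik (0.82), to Atf3 Slc35e4 (0.87) and to Btg2 Mbip (0.78). These are descriptions over 12 libraries that share feeding state, genotype and scaling, and the highest of so many candidates is high by construction.

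Markers of other liver cells were read in the averaged contrast, where 16.8% of all tested genes were lower. There, 6 of 8 tested stellate cell markers and 5 of 8 sinusoidal endothelial markers were lower (1 endothelial marker was higher). Also lower were 2 of 8 Kupffer cell, 1 of 4 cholangiocyte and 1 of 5 erythroid markers, and 0 of 4 neutrophil and 0 of 8 lymphocyte markers passed. Of the hepatocyte markers 1 of 7 was higher and 2 were lower. Summed stellate markers ranged from 246 to 326 CPM in fed and from 222 to 252 in fasted mice, endothelial markers from 208 to 299.7 (fed) and from 173 to 204 (fasted), cholangiocyte markers from 33.5 to 49.9 (fed) and from 13.8 to 29.7 (fasted), erythroid markers from 266 to 628 (fed) and from 233 to 601 (fasted), and Kupffer markers from 309 to 566 (fed) and from 255 to 490.4 (fasted). The fed and fasted sums of the endothelial and cholangiocyte markers did not overlap, where 15.9% of all tested genes, taken singly, were fully apart. The cholangiocyte sum was mostly Spp1, with a mean of 24.6 CPM, and the next highest of its markers was Sox9 with 2.87. Neutrophil markers were close to 0 throughout (1.92 to 10.4 CPM summed, with at most 1 count on Ly6g), and lymphocyte markers summed to 4.76 to 9.48 CPM. Their part in the changes of Crem, Crtc2 and the listed genes was not tested, and in whole liver fewer cells of a type and less RNA per cell cannot be told apart. Between genotype labels, 0 markers of these lists passed in the averaged contrast.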

How the data were processed

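Liver RNA of 12 female mice (4 groups of 3) was extracted from snap-frozen tissue with a Qiagen kit. The authors deposited 1 table of expected counts per gene for 48795 genes with GRCm38 positions, not scaled between mice. The submitters' processing notes name Trimmomatic, RSEM and GRCm38, and versions, strand setting and a test for single genes are not given in the sources used here. Every count column was of a mouse of the series, and columns of other samples numbered 0.

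Groups were taken from the sample labels. Counts were rounded, and edgeR 4.0.16 (R 4.3.3) filtered low genes (filterByExpr), normalized with TMM and fitted all 12 mice with a mean per group and robust quasi-likelihood tests of 7 contrasts. Benjamini-Hochberg values were taken over 13812 genes. Each SE was derived as the absolute log2 fold change divided by the square root of the F statistic of its test. The 95% intervals were built from that SE and a t quantile. Depth was 21999656 to 45273081 counts. The biological coefficient of variation was 0.202. TMM-normalized CPM used effective library sizes, and log2 CPM a prior count of 2. The averaged fasting contrast alone was also run on simulated counts, drawn around a common mean per gene with some genes changed by fasting. That run did not model single high mice or the other contrasts.

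The 10 genes, the 4 pathway lists and the 8 marker lists were chosen with earlier results of these data known. Named list genes are up to 6 with the smallest p in the averaged fasting contrast among those past the threshold, plus Ppargc1a, Pck1, G6pc and Cd36. Per1, Creb1, Dusp1, Prdx2, Junos, Zfp36l2, Csrnp1, Cyr61, Socs3, Klf2, Rhob and Mcl1 were named after their values were seen. Genes of like pattern are the 3 with the highest correlation. Alternatives were leaving out each mouse, RLE size factors, DESeq2 1.42.0 (Wald test), a fit on only the mice compared, a minimum of 10 counts in every mouse and keeping all genes with any count. Transcript length came from GENCODE vM39 (matched by Ensembl identifier) and promoter sequences from RefSeq on GRCm38.p6.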

Additional observations from a re-analysis of the deposited data

How the results depend on the processing

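No paired analysis was made, because the groups share no mouse and the labels give no litter, so that litter was not modelled. Single-gene values were followed for all 10 genes in the fasting contrasts. In each genotype contrast they were followed only for the genes of the 10 with the smallest p. These were Ier2, Egr1 and Btg2 in fed livers, and Jun, Nr4a1 and Crem in the other genotype contrasts. The remaining genotype values, some of them close to 0, were not followed. Of 194 such values under settings other than leaving out a mouse, 192 kept their direction and side of the threshold. The other 2 are the DESeq2 calls of Egr1, in Nts-/- livers and on average. They brought the count in Nts-/- livers from 0 to 1 and added Egr1 to Crem and Crtc2 on average. With 1 mouse left out, 467 of 504 kept both, 15 were lost calls (Crem and Crtc2), 1 was a gained call (Egr1) and 21 changed sign, none of them called. The count of the 10 genes past the threshold was then 0 to 1 in Nts+/+ livers and 0 to 2 on average (0 without mouse 290). Fasting log2 fold changes that changed sign ranged, in Nts+/+ livers, from -2.43 to 0.84 for Fos, from -0.59 to 0.19 for Ier2, from -0.76 to 0.29 for Nr4a1 and from -0.41 to 0.30 for Btg2. In Nts-/- livers they ranged from -0.25 to 0.22 for Jun, from -0.98 to 0.10 for Junb, from -0.23 to 0.093 for Crem and from -0.51 to 0.12 for Btg2, and on average from -0.31 to 0.079 for Btg2. Genotype differences ranged in fed livers from -0.094 to 0.89 for Ier2 and from -0.039 to 0.56 for Btg2, and on average from -0.018 to 0.16 for Crem. Counts of all genes past the threshold fell to 1224 (without mouse 282) in Nts+/+ and 1358 (without mouse 277) in Nts-/- livers, and rose to 12, 4, 16 and 3 between genotypes in DESeq2. The immediate early list had 3 genes past the threshold in Nts+/+ livers with no filter, against 6. In Nts-/- livers DESeq2 gave 8 of that list (against 5), 7 CREB targets (against 4) and 4 of the ERK list (against 2). The causes were not tested.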
